A study of Homo sapiens with 3 samples.

Results

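Clusters in which an edited read carried several edits made up 4091 of the 14444 clusters with at least 3 edited reads, and of 40843 clusters in all, in the STAMP data of the RNA-binding protein RBFOX2. These clusters were chosen by their counts of edited reads and edited bases: at least 3 reads were edited and the edited bases, summed over reads, came to at least 2 per edited read. The remaining 10353 clusters with at least 3 edited reads had a lower ratio and served as the comparison. The ratio is an average over the edited reads of a cluster, so it does not give the number of edits of any single read. The 26399 clusters with 1 or 2 edited reads entered neither class.

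In STAMP, an RNA-binding protein is fused to the cytidine deaminase APOBEC1, which turns C into U in RNA near the place where the fusion protein sits, and the edits are read from ordinary RNA sequencing. RBFOX2 is a regulator of alternative splicing that binds GCAUG in RNA, in introns near the exons it controls and in the 3′ ends of transcripts. Where its C-to-U mismatches are true edits, a read with several comes from 1 RNA molecule on which the deaminase acted more than once. A C-to-U mismatch can also be a sequencing error or a genomic variant, and these were not told apart from edits here.

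The samples were 3 replicates of HEK293XT, a derivative of the human embryonic kidney line HEK293T made for lentivirus production, labelled WT in genotype. The sample titles and the paper name the line HEK293T, and the cell line field of the labels HEK293XT. All 3 expressed the RBFOX2-APOBEC1 fusion under doxycycline for 72 h, so the series analysed here has 1 condition and no sample without the fusion. The labels call the treatment a transient transfection, while the growth protocol describes stable lines, and which of these applies was not settled here. RNA was described as polyA RNA. The cell type could not be checked against its markers, because the files hold edited clusters and not expression. The paper calls the samples biological replicates, but the labels do not say whether they came from separate cultures.

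Replicates 1, 2 and 3 had 14295, 15181 and 11367 clusters, and 5318, 5389 and 3737 of these had at least 3 edited reads. Multiply edited clusters numbered 1417, 1600 and 1074, which is 26.6%, 29.7% and 28.7% of the clusters with at least 3 edited reads and 28.3% over the replicates together. Their Wilson 95% intervals ran from 25.5% to 27.9%, from 28.5% to 30.9% and from 27.3% to 30.2%. They cover counting error over clusters only and treat the clusters of a gene as independent. Reads were counted without molecular identifiers. The share averaged 28.4% ± 1.56 (SD, n = 3 replicates). Multiply edited clusters held 30.01% ± 1.19 of the edited bases but 17.1% ± 0.790 of the edited reads in clusters with at least 3 edited reads.

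The values that the rule used are given as a description. The median ratio was 2.5 in each replicate and the highest was 9, 9 and 10. A ratio of exactly 2 was found in 334, 362 and 233 members, on average 22.6% ± 0.938 of them. Most members rested on few reads: 596, 662 and 488 had exactly 3 edited reads, and 103, 106 and 80 had 11 or more. The median cluster had 4 edited reads in both classes and in each replicate, with 11 edited bases in multiply edited clusters and 5 in clusters with a lower ratio.

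The highest ratio belonged to SRSF10, a splicing factor of the SR family, where 3 reads carried 30 edits in replicate 3 (chr1:24304446-24304550 of hg19, minus strand, exon_6 in the authors' numbering). Ratios of 9, from 27 edits in 3 reads, were found in SLC19A2, a thiamine transporter, in RICTOR, a subunit of the kinase complex mTORC2, in CSNK1A1, a casein kinase, and in an intronic cluster at BMS1P20. Of these 4 clusters, only that at BMS1P20 was met by a cluster of another replicate. In all of them and in SRSF10 the edits were a whole multiple of the edited reads. This was not so in GCC2 (41 edits in 5 reads, replicate 3), CAB39 (23 in 3, replicate 2) and WDR26 (22 in 3, replicate 3). Reads had no molecular identifiers, so whether the 3 edited reads of such a cluster came from separate molecules was not tested. Of 78 clusters with a ratio of at least 6, 62 had exactly 3 edited reads, 26 were met in another replicate and 5 in both.

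Beside the members with a ratio of exactly 2, those nearest above the threshold were B2M in replicate 1, with 143 edited bases in 71 edited reads (ratio 2.01), and SKP1 in replicate 2, with 101 in 50 (ratio 2.02). B2M codes for the light chain of class I histocompatibility molecules and SKP1 for a subunit of ubiquitin ligases. Just outside lay PGK1, a glycolytic kinase, with 241 edited bases in 121 edited reads in replicate 2 (ratio 1.99), and SNHG6, a host of small nucleolar RNAs, with 93 in 47 in replicate 1 (ratio 1.98). The PGK1 cluster was labelled intron_3 and had 14849 reads at a mean depth of 6597. Whether its reads came from PGK1 transcripts was not examined.

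Multiply edited clusters were longer and held more C bases. Their median length was 90 bases in each of the 3 replicates, against 45 bases for the clusters with a lower ratio. The median number of C bases was 17, 17 and 17.5 in replicates 1, 2 and 3, against 9, 10 and 10, a difference of 7.5 ± 0.5 C bases (SD, n = 3). The direction was the same in 3 of 3 replicates for both measures. An exact two-sided sign-flip permutation test over the 3 replicates gave p = 0.25, the smallest p that 3 replicates allow, and 0.312 after Benjamini-Hochberg adjustment over 15 measures. No measure could therefore reach 0.05 in this design. Length and C bases come from the windows that passed the authors' test on the same edits, so they are not independent of how many edits a cluster held.

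The share of multiply edited clusters was higher in longer clusters up to 134 bases, with a step at 60 bases. It was 4.38% ± 0.305 for clusters of 30 to 44 bases and 8.05% ± 1.04 for those of 45 to 59 bases, the most frequent length class. Clusters of 60 to 74 bases had 42.9% ± 2.53, those of 90 to 104 bases 55.3% ± 4.04 and those of 120 to 134 bases 70.0% ± 1.96. Above that it was 61.1% ± 6.31 at 135 to 149 bases and 62.2% ± 4.83 at 150 bases and more. In each replicate the share at 60 to 74 bases was more than 4 times that at 45 to 59 bases. With C bases the share changed more evenly, from 2.52% ± 0.805 at no more than 4 C bases through 20.6% ± 1.58 (9 to 12 C bases) and 47.3% ± 3.25 (17 to 20 C bases) up to 66.8% ± 2.16 (26 to 30 C bases). Above 30 C bases it was 61.0% ± 2.59.

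**Figure D1:**
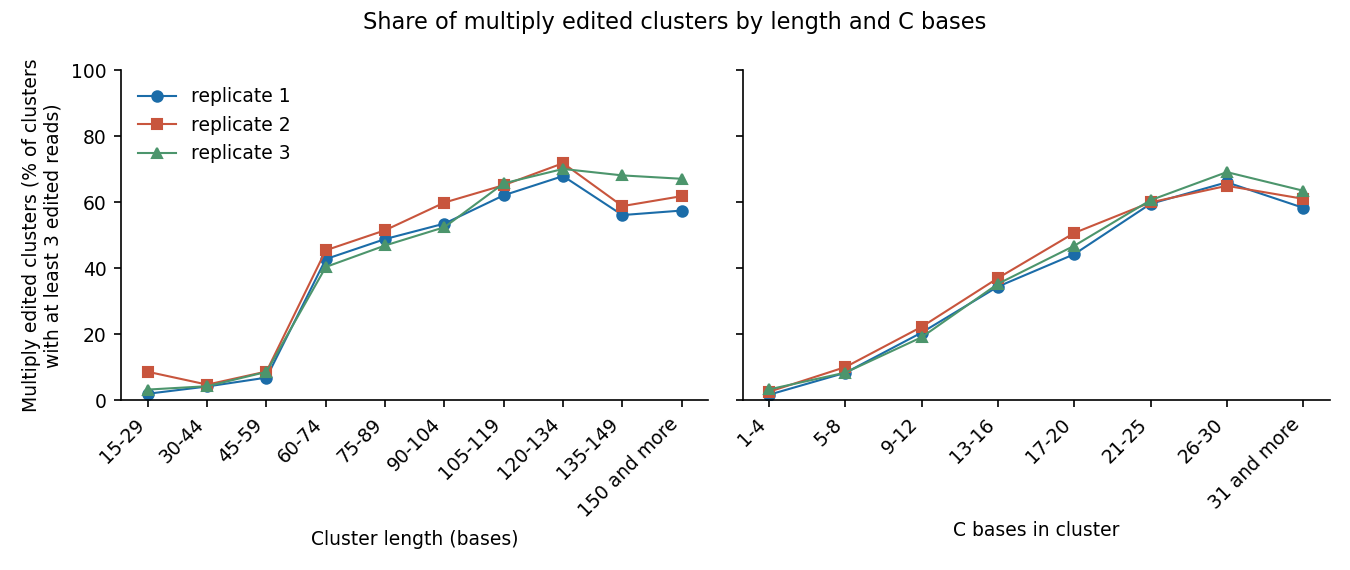
Share of multiply edited clusters (percent of clusters with at least 3 edited reads) by cluster length in bases, left, and by C bases in the cluster, right, with 1 line and 1 symbol per replicate. In all 3 replicates the share lies under 10% below 60 bases and over 40% from 60 bases on, while it rises in smaller steps with C bases.

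The number of C bases followed from length for the most part. At 90 to 104 bases the median was 17, 17 and 18 C bases in multiply edited clusters and 15, 16 and 16 in clusters with a lower ratio. With clusters compared within classes of 15 bases of length, the difference was 0.836 ± 0.610 C bases, against 7.5 without classes. The density of C bases did not separate the classes: the median was 18.7, 19.2 and 20 C bases per 100 bases in multiply edited clusters and 20 in each replicate in clusters with a lower ratio (difference -0.722 ± 0.674, exact sign-flip p = 0.5). At equal length the density difference was positive, 1.39 ± 0.496 per 100 bases, so its direction depended on whether length was held equal.

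**Figure D2:**
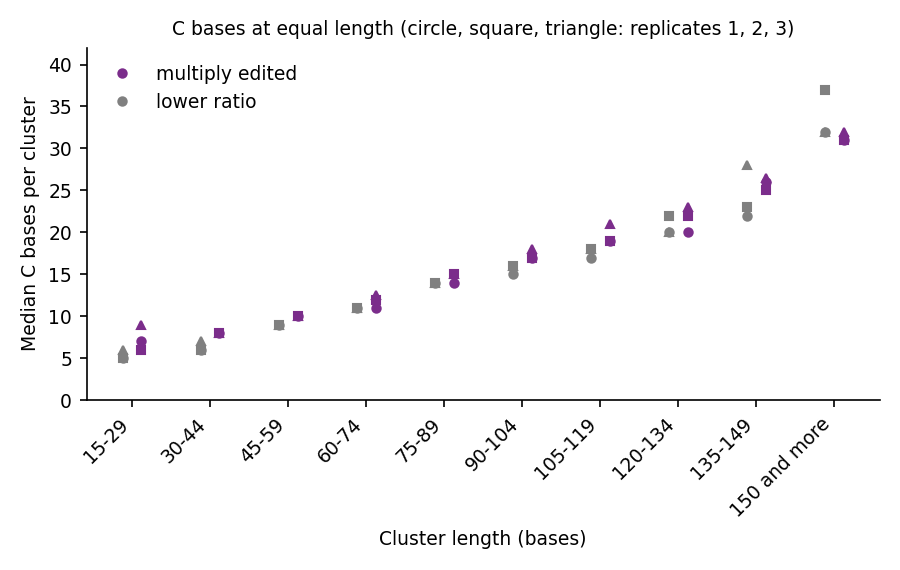
Median C bases per cluster against cluster length in bases for multiply edited clusters (purple) and clusters with a lower ratio (grey), with 1 symbol per replicate. Both classes rise together with length, and at 90 to 104 bases the medians are 17 to 18 against 15 to 16 C bases.

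A read covered more C bases in a multiply edited cluster. The C bases covered per read were 8.94, 9.24 and 9.44 at the median, against 6.32, 6.42 and 6.49 in clusters with a lower ratio (difference 2.80 ± 0.166, 3 of 3 replicates, exact sign-flip p = 0.25). Read depth was lower, with a median mean depth of 48.2, 48.0 and 46.0 reads against 62.4, 59.5 and 58.7. The number of reads that touched a cluster differed by less than its spread (87, 88 and 82 against 90, 87 and 85). The percentage of reads that were edited, which shares its edited reads with the rule, was 5.04% ± 0.131 against 5.10% ± 0.141. Set against the C bases of an average read, the edits of an edited read came to 29.8 ± 0.708 per 100 covered C bases in multiply edited clusters and 19.1 ± 0.175 in the others, a difference that the rule favours. The part that C bases per read had in the ratio was not tested.

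The place of the clusters in genes differed little. Clusters labelled with introns alone made up 1.12% ± 0.155 of multiply edited clusters and 1.62% ± 0.139 of the others (difference -0.508 ± 0.249 percentage points). In the authors' numbering the exon number rose with the coordinate on both strands, in 3848 of 3848 and 3692 of 3692 neighbouring pairs of exons, so exon_0 lies at the 3′ end of a minus-strand gene. It held 74.4%, 69.3% and 69.4% of the multiply edited clusters on minus-strand genes and 68.7%, 66.0% and 67.4% of the others. The difference was 3.64 ± 1.92 percentage points. On plus-strand genes, where exon_0 lies at the 5′ end, it held 4.69% ± 1.17 against 5.52% ± 0.577. Another cluster lay within 500 bases of 57.2% ± 1.98 of the multiply edited clusters and of 53.6% ± 1.12 of the others. Of clusters with 1 gene name that matched RefSeq symbols of GRCh38.p14, a match that 98.9% and 98.5% of them had, 98.0% ± 0.589 of the multiply edited ones lay in protein-coding genes, against 97.2% ± 0.369, and 1.03% ± 0.426 in pseudogenes, against 1.75% ± 0.321. Each of these differences had the same direction in 3 of 3 replicates and an exact sign-flip p of 0.25.

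Recurrence measures whether a cluster was met in the other replicates by a cluster that shared 1 base or more with it on its strand. In all 3 replicates were found 22.6%, 22.8% and 31.2% of the multiply edited clusters, against 24.3%, 23.3% and 31.1% of the clusters with a lower ratio. The difference of -0.708 ± 0.893 percentage points was smaller than its spread (exact sign-flip p = 0.5). At least 1 other replicate held 55.1%, 53.6% and 64.3% of the multiply edited clusters and 49.96%, 49.5% and 57.8% of the others, a difference of 5.25 ± 1.21 percentage points in 3 of 3 replicates. The multiply edited clusters were longer, and this difference was not computed at equal length. Since an overlap counts in both replicates it joins, the 3 values are not independent of each other.

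The direction of the difference in recurrence depended on which property was held equal. Within classes of edited reads, the share found in all 3 replicates was higher in multiply edited clusters by 3.36 ± 1.08 percentage points, in 3 of 3 replicates. Within classes of length the difference was -21.7 ± 0.786 percentage points, again in 3 of 3 replicates, and both had an exact sign-flip p of 0.25. With both held equal the difference was -0.897 ± 1.59 percentage points and its sign differed between replicates. At 90 to 104 bases, 21.5% ± 3.85 of the multiply edited clusters and 45.3% ± 6.45 of the others recurred, with median edited reads of 4 and 6.67, so clusters of equal length differed in edited reads. Among clusters with exactly 3 edited reads, 11.2% ± 4.36 and 8.64% ± 2.92 recurred, and among those with at least 11, 84.5% ± 3.15 and 79.0% ± 4.03. By ratio, recurrence was 14.9% ± 4.73 in clusters with a ratio of 1 or less, 37.2% ± 3.51 above 1 and under 1.5 and 35.2% ± 3.46 from there to under 2, so the clusters with a lower ratio were not alike. It was 28.8% ± 5.34 for ratios between 2 and 3 (2 included), 22.2% ± 4.65 between 3 and 4, 16.5% ± 5.40 between 4 and 6 and 7.05% ± 3.59 from 6 on, where only 26 ± 7 clusters per replicate were counted.

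**Figure D3:**
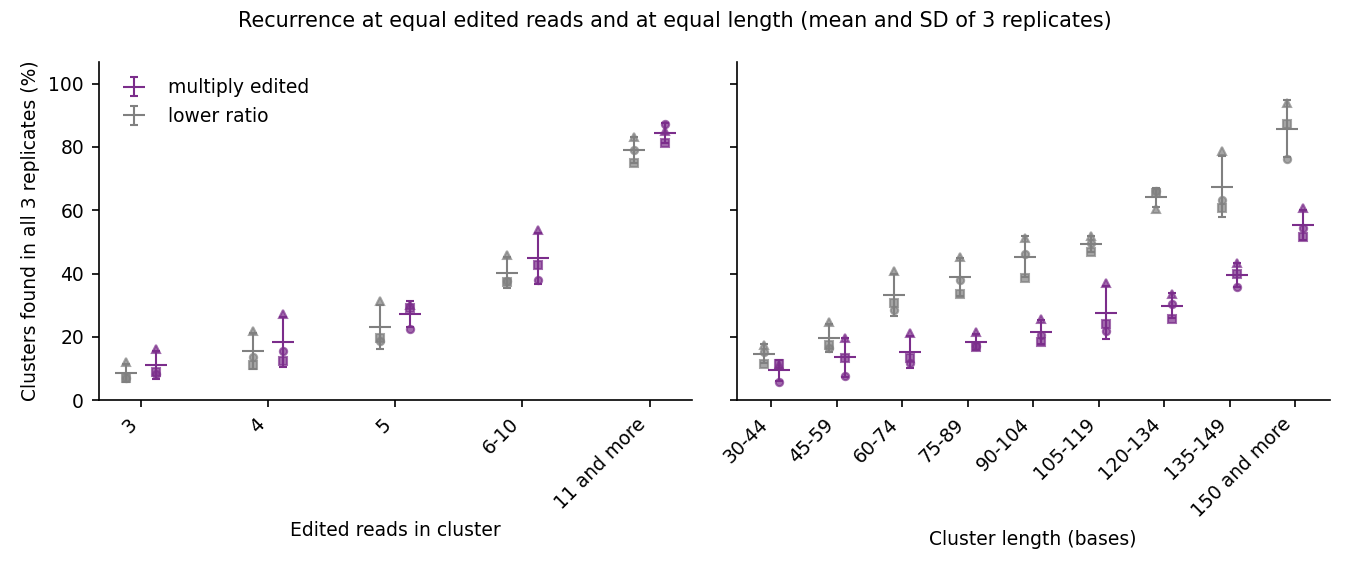
Percent of clusters found in all 3 replicates, by edited reads per cluster on the left and by length in bases on the right, for multiply edited clusters (purple) and clusters with a lower ratio (grey), with bars for mean and SD over 3 replicates and symbols for the replicates. At equal edited reads the multiply edited clusters lie slightly higher, and at equal length from 30 bases on they lie lower, at 21.5% against 45.3% for 90 to 104 bases. The class of 15 to 29 bases, with 7 multiply edited clusters, is not drawn.

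Clusters chosen as multiply edited in 1 replicate also had a higher ratio in another replicate, whose ratio was not used for that choice. For each choice, the overlapping clusters of the other replicates were read where they had at least 3 edited reads as well. Their median ratio was 1.79, 1.77 and 1.79 for choices made in replicates 1, 2 and 3, against 1.43, 1.398 and 1.42 for clusters chosen with a lower ratio. The difference was 0.366 ± 0.00817 edits per edited read in 3 of 3 replicates (exact sign-flip p = 0.25). Each overlapping pair was read in both directions, so the 3 values share pairs and their spread understates the error. Of the multiply edited clusters with such a partner, 42.9%, 42.2% and 43.1% were multiply edited there too, against 23.1%, 21.6% and 19.9% of the others, a difference of 21.1 ± 1.78 percentage points. More than 50% of the partners thus fell under a ratio of 2. Between 23.4% and 37.5% of the multiply edited clusters had a partner with at least 3 edited reads in a given replicate. Within classes of length the difference in ratio was 0.273 ± 0.00386, and within classes of length and of edited reads together it was 0.151 ± 0.0668.

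**Figure D4:**
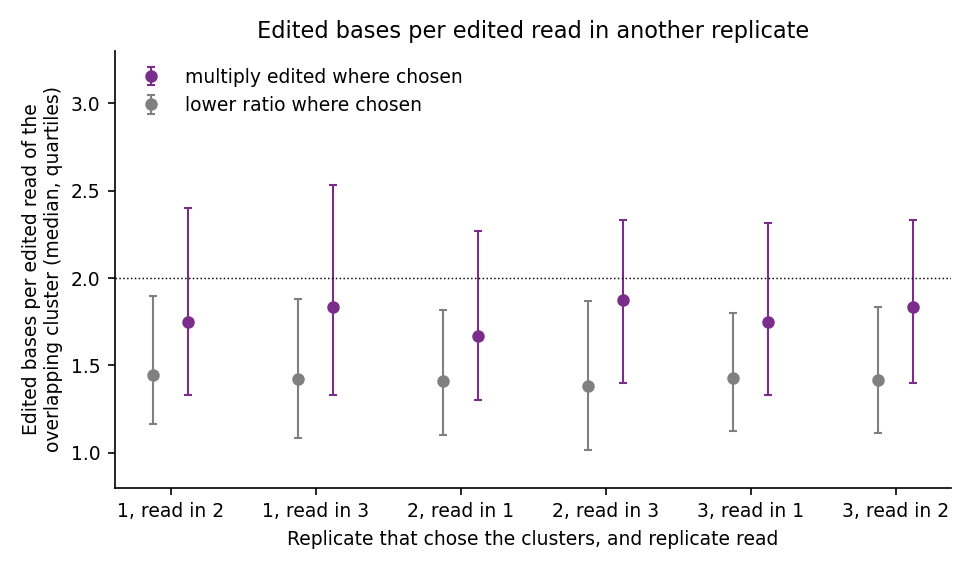
Edited bases per edited read of the overlapping cluster in another replicate (median and quartiles over clusters), for each of the 6 orders of choosing and reading replicate, with the threshold of 2 as a dotted line. In all 6 the median of the clusters chosen as multiply edited (purple) lies above that of the others (grey) and below 2.

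Joined over replicates, the multiply edited clusters fell into 3606 loci. Only 52 loci had a multiply edited cluster in all 3 replicates, 365 had one in 2 and 3189 in 1. Of 981 loci with at least 3 edited reads in all 3 replicates, 504 were multiply edited in none, 259 in 1, 166 in 2 and 52 in 3. At each of these 52 loci, the multiply edited cluster with the highest ratio was taken in each replicate. The clusters taken had a median length of 105 bases, which is not the span of the loci. Their edited reads, summed over the replicates, had a median of 20 per locus. None of the 52 loci was labelled with introns alone. The clusters of a locus were chained by overlap, so those of a pair of replicates do not always touch.

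By the clusters taken, the 20 loci whose lowest ratio over the replicates was highest ran from a lowest ratio of 3.75 down to 2.29. A locus with another, lower member in a replicate could therefore rank higher than that member would place it. THUMPD2, which codes for a methyltransferase of the THUMP family, led these 20 loci. Its exon_0, at the 3′ end (chr2:39963711-39963950, minus strand), held 31 edited bases in 7 edited reads of 84, 14 in 3 of 65 and 15 in 4 of 70, ratios of 4.43, 4.67 and 3.75. MGEA5, the enzyme that takes O-GlcNAc off proteins, followed at chr10:103545041-103545175 on the minus strand with ratios of 3.67, 4.33 and 3.29. At FIP1L1, a subunit of the polyadenylation factor CPSF, the ratios were 5, 5 and 3 on 3, 5 and 3 edited reads (chr4:54325485-54325739, plus strand). FIP1L1 had no other cluster with at least 3 edited reads.

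The fourth locus stood apart in the share of reads that were edited. RP11-83J16.1, a clone-named gene (chr15:35235282-35235431, plus strand), had 64 edited bases in 22 edited reads of 34, 144 in 46 of 67 and 156 in 55 of 78. Its ratios of 2.91, 3.13 and 2.84 lay close together, and 64.7%, 68.7% and 70.5% of its reads were edited. At the other 19 loci between 1.02% and 16% of the reads were edited. Its edit fraction, edited bases over covered C bases, was 9.43%, 10.7% and 9.56%. Whether the reads came from this gene was not examined. Without a sample that lacks the fusion, edits and fixed sequence differences cannot be told apart at this locus.

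Among the remaining loci, RBM15B, an RNA-binding protein of the m6A methyltransferase complex, had ratios of 3.78, 2.80 and 3.00. COPA, a coat protein of vesicles between Golgi and endoplasmic reticulum, had 3.75, 2.73 and 4.50, and SERINC1, a membrane protein named for serine incorporation into lipids, had 2.77, 3.86 and 3.20. CDC42, a small GTPase of the cytoskeleton, was among the more even ones with 3.00, 2.67 and 2.75 on 7, 9 and 4 edited reads. TSN, the nucleic-acid-binding protein translin, had the same interval of 90 bases in each replicate (chr2:122524451-122524540, plus strand), with 10, 12 and 10 edited bases in 4, 4 and 3 edited reads. TTL, a tubulin tyrosine ligase, had the widest range, with 6.40, 4 and 2.33.

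The other loci lay in GSKIP (which binds the kinase GSK3), MAD2L1BP (a regulator of the mitotic checkpoint), HBP1 (a transcription factor), SMU1 (a spliceosome protein, in a label shared with AL162590.1), TBCE (a tubulin folding factor), C5orf15, EIF4A2 (a helicase of translation initiation), RNF19B (a ubiquitin ligase), BLOC1S2 (a lysosome-related factor) and YBX3 (a Y-box RNA-binding protein). The ratios taken at them lay between 2.29, in replicate 2 of YBX3, and 5.00, in replicate 3 of HBP1. Of the 20 loci, 9 lay on minus-strand genes, and these 9 were all in exon_0. Exon_0 also held 71.0% ± 2.95 of all multiply edited clusters on minus-strand genes, counted where the label named 1 gene and 1 exon. The EIF4A2 cluster carried the label exon_2 together with 4 small nucleolar RNAs of its introns, so the gene behind its reads was not settled. In replicate 2 the EIF4A2 locus had a member with a ratio of 4.25 on 4 edited reads, which was taken. Another member there had a ratio of 2.00 on 9 edited reads, and by that one EIF4A2 would not be among the 20. Over these loci a cluster had a median of 4.5 edited reads, so single reads moved a ratio.

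**Figure D5:**
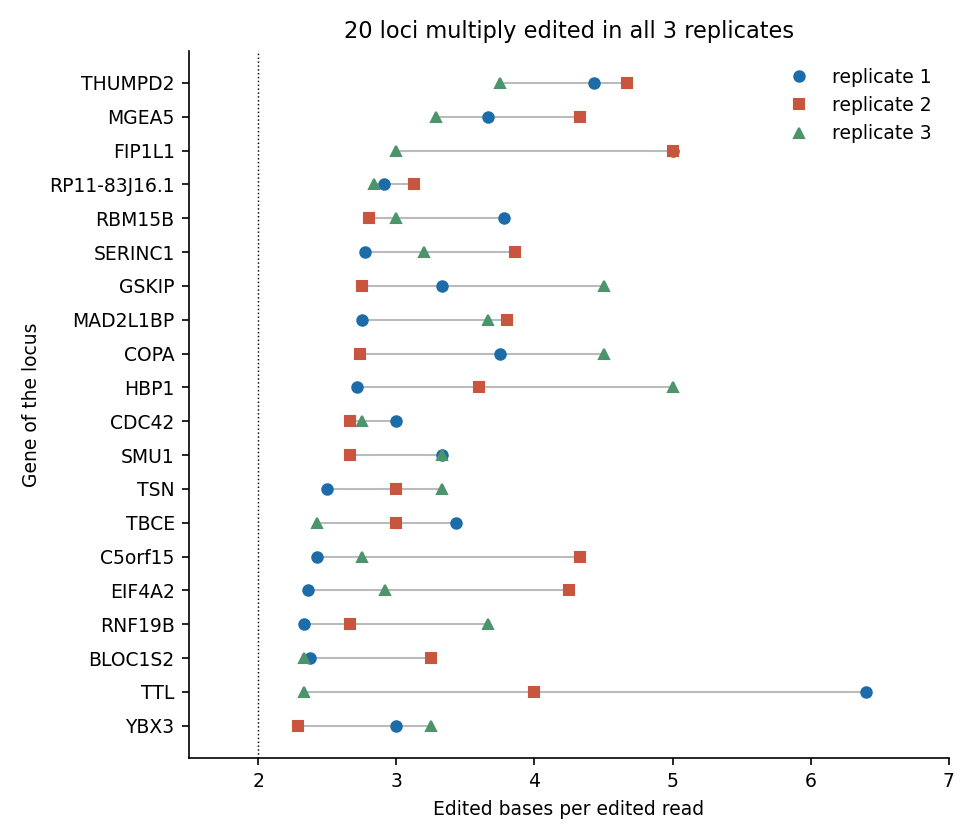
Edited bases per edited read in each replicate (symbols, joined by a grey line) at the 20 loci with a multiply edited cluster in all 3 replicates and the highest lowest ratio, with the threshold of 2 as a dotted line. Each symbol is the member with the highest ratio at that locus in that replicate. RP11-83J16.1 has the narrowest range among the first 10, from 2.84 to 3.13, and TTL the widest of the 20, from 2.33 to 6.40.

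The 5 recurrent loci with the most edited reads in the clusters taken were RP11-83J16.1, described above, and 4 others. ANXA5, the phospholipid-binding annexin, had 142 edited bases in 70 edited reads, 195 in 75 and 123 in 56, ratios of 2.03, 2.60 and 2.20 (chr4:122589321-122589682, minus strand, exon_0). B2M had 143 in 71, 156 in 68 and 50 in 23, ratios of 2.01, 2.29 and 2.17 (chr15:45009821-45010285, plus strand, exon_8). XBP1, a transcription factor of the unfolded protein response, had 42, 8 and 7 edited reads and ratios of 2.79, 3.25 and 2.14. CDK2AP1, a cell cycle regulator that shared its label with a clone-named gene, had 27, 15 and 13 edited reads and ratios of 2.00, 2.13 and 2.54.

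RBFOX2 itself, the protein of the fusion, contributed few members. It had 16, 16 and 14 clusters with at least 3 edited reads, of which 2 of 46 (4.35%) were multiply edited, against 28.3% over all genes. These clusters were deep, with a median mean depth of 3354, 5746 and 2171 reads, and had a median length of 45 bases. Over all genes the share was 8.05% ± 1.04 at 45 to 59 bases and 17.2% ± 0.900 with at least 11 edited reads. The part of depth, length and edited reads was not tested. Both RBFOX2 members lay at exon_26 on chromosome 22 (chr22:36205828-36205962, minus strand). The cluster had 839 edited bases in 413 edited reads in replicate 1 and 1787 in 723 in replicate 2, ratios of 2.03 and 2.47. In replicate 3 the cluster that overlapped them had 673 edited bases in 449 edited reads, a ratio of 1.499. The former 2 had the most edited reads of all 4091 members. The median ratio of the RBFOX2 clusters was 1.26, 1.30 and 1.33. The cells also carried the RBFOX2 coding sequence in the fusion, and reads of the gene and of the fusion cannot be told apart here.

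Multiply edited clusters were spread over many genes. They were found in 1236, 1335 and 954 genes, 2521 in all, and 1561 genes had a single one over the replicates. In all 3 replicates 228 genes had one (9.04%), and 934 of 4510 genes (20.7%) had a cluster with a lower ratio in all 3. The classes differ in their number of clusters, so these shares are given as they are.

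The most multiply edited clusters, 11 over the replicates, were found in BTG2, EIF2S1 and POLR2A. BTG2, an antiproliferative gene induced by p53, had 6, 3 and 2 multiply edited clusters in replicates 1, 2 and 3 and 1, 3 and 1 with a lower ratio, so 68.8% of its 16 clusters were members. All 11 lay in exon_2, at mean depths of 9.53 to 44.8 reads. EIF2S1, the alpha subunit of the initiation factor eIF2, had 3, 4 and 4 against 1, 2 and 1, in exon_4, exon_8, exon_14 and exon_16. A locus in its exon_4 was multiply edited in each replicate, with ratios of 5.67, 2.20 and 3.57. So was a locus in its exon_14, with ratios of 3.00, 2.50 and 2.00. POLR2A, the largest subunit of RNA polymerase II, had 4, 3 and 4 against 3, 3 and 3, all members in exon_54.

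The next genes had 10 or 9 members. EIF4A2, SERINC1, TARS (threonyl-tRNA synthetase) and YWHAG (a 14-3-3 protein) had 10 each, and RAD51C (homologous recombination) and SRSF2 (an SR splicing factor) had 9. SRSF2 had 2, 4 and 3 multiply edited clusters and only 2, 0 and 0 with a lower ratio. Its clusters carried the label of the microRNA MIR636 as well, which lies within the gene. YWHAG had 5, 3 and 2 against 0, 2 and 2, all in exon_0. The TARS members were spread over exon_10 to exon_46, with a ratio of up to 6.5. Another 9 genes shared the tenth place with 8 members each, namely ARF3, DEK, EIF5, FAM53C, NCAPG, NUCKS1, PCBP2, SRSF7 and TWISTNB. TWISTNB, a subunit of RNA polymerase I, had 8 members of 9 clusters, and EIF5, an initiation factor, 8 of 21.

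Gene groups differed in how many of their clusters with at least 3 edited reads were multiply edited, beside 28.3% over all genes. These shares are descriptions without a test, and the clusters of a gene in different replicates are not separate observations of it. Of the SR splicing factors, 46 of 128 clusters (35.9%) were members, and the share was 26%, 48.9% and 33.3% in the replicates. SRSF2, SRSF7 and SRSF1 led with 9, 8 and 7. Chromatin modifiers had 43 of 126 (34.1%), with 32.1%, 37.8% and 33.3% in the replicates, led by CHD2, a chromatin remodeller, with 5 and the deacetylase HDAC2 with 4.

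Groups near the share of all genes were chaperones with 60 of 213 clusters (28.2%), solute carriers with 42 of 143 (29.4%), ZNF zinc finger genes with 38 of 130 (29.2%), DEAD and DEAH box helicases with 35 of 127 (27.6%) and translation factors with 71 of 268 (26.5%). Among the chaperones the chaperonin subunit CCT2 and the co-chaperone DNAJA1 had 6 each, and among the helicases DDX3X had 7. Kinesin and mitosis genes had 23 of 75 (30.7%), with 41.4%, 23.1% and 25% in the replicates, and the long noncoding RNAs 9 of 30 (30%), 6 of them in LINC00657. Genes known as splicing targets of RBFOX2 had 11 of 41 (26.8%), with shares of 15%, 36.4% and 40.0%.

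Ribosomal protein, glycolysis and lipid synthesis genes had few members. Cytosolic ribosomal proteins had 25 of 222 clusters (11.3%), and the share was 10.9%, 12.9% and 9.59% in the replicates, under that of all genes in each. RPL15 had 5 and RPL37 4. RPL7L1, named for its likeness to RPL7 and not checked here as a part of the ribosome, had 5 as well. Many ribosomal protein genes have pseudogene copies elsewhere in the genome, and how reads of such copies were placed was not examined. Glycolysis enzymes had 1 member of 49 clusters (2.04%), in PGAM1, and sterol and fatty acid synthesis genes 3 of 43 (6.98%). Tubulins and actins had 5 of 41 (12.2%).

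Length went with the shares in the ribosomal protein, glycolysis and SR groups, and C bases per read only in the first of these. Under 60 bases lay 60.8% of the ribosomal protein clusters, 71.4% of the glycolysis clusters and 46.1% of the SR clusters, against 55.5% over all. Length did not go with the share in every group, since chromatin modifiers, with 34.1% members, had 57.1% of their clusters under 60 bases. Histones had 40.5% under 60 bases but 21.5% members. ZNF zinc finger genes had 60.8% under 60 bases, as the ribosomal proteins did, but 29.2% members. Sterol and fatty acid synthesis genes, with 65.1% under 60 bases and 6.98% members, did go with length. The median C bases covered per read were 4.86 in ribosomal protein clusters, 7.49 in glycolysis clusters and 5.82 in SR clusters, against 7.12 over all. Glycolysis clusters had few members at a C content per read above that of all clusters, and SR clusters many at one below it. The part of either measure in the shares was not tested.

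Histones had 17 of 79 (21.5%), with 17.2%, 25% and 22.7% in the replicates, under that of all genes in each. The hnRNP genes had 40 of 183 (21.9%), but the replicates differed, with 27.7%, 16.9% and 20.3% beside 26.6%, 29.7% and 28.7% over all genes. RBFOX and other splicing regulators had 25 of 114 (21.9%), of which RBFOX2 alone held 2 of 46. Without RBFOX2 the group had 23 of 68 (33.8%), with 44.4%, 23.8% and 30% in the replicates. HNRNPF and HNRNPK had 6 members each, and FUBP1, KHDRBS1 and RBM39 had 4 each. Cytoskeletal and motor giants had 6 of 25 clusters, giant ubiquitin ligases and kinases 3 of 22, and cadherin, integrin, laminin and collagen genes 3 of 21. The mitochondrially encoded genes had 0 of 14, all of them under 60 bases long.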

How the data were processed

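Per the labels and the paper, RNA of 3 replicates was sequenced, C-to-U positions were called with SAILOR and clusters with FLARE (windows of 30 bases, adjusted p threshold 0.1, merging distance 15 bases), each replicate on its own. The submitters' processing notes name STAR and hg19. The deposited counts (edited bases, edited reads, reads, C bases, covered C bases) are unscaled whole numbers per cluster. The authors' edit fraction is edited over covered C bases, their mean depth is an unscaled coverage signal, and the score deposited by the authors is a cumulative probability. Clusters summed to 1637592, 1731304 and 1104249 reads, which is not the depth of the libraries.

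From these, medians and shares per replicate were computed in pandas 2.3.3 (Python 3.11.15, NumPy 2.4.6; figures drawn in matplotlib 3.10.9; SciPy 1.17.1) and compared between the classes with exact two-sided sign-flip permutation tests over 3 replicates. Differences within classes were weighted by the number of multiply edited clusters. The overlap and merging code was tested on 500 simulated clusters. The members, gene lists and tests were chosen with earlier results of these data known. Named are, of loci multiply edited in all 3 replicates, the 20 with the highest lowest ratio and the 5 with the most edited reads, the 10 genes with the most members (with ties), RBFOX2, and examples of each list. At a locus with several members in a replicate, the member with the highest ratio was taken. Lists set by a name pattern can hold pseudogenes and like-named genes. Gene names are the authors'. Cluster sequences are not shown, since no hg19 genome was used here.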

Additional observations from a re-analysis of the deposited data

How the results depend on the processing

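Over 73 alternative values of 6 results, 31 moved by no more than the spread between replicates, 34 moved by more with the same direction and 8 turned in direction. Longer clusters, more C bases and a higher ratio in the other replicates kept their direction under every alternative run for them. Recurrence and C density did not.

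With at least 3 edited bases per edited read the share of multiply edited clusters was 10.2%, and the differences were 8.67 C bases, 59.3 bases of length, -7.14 percentage points of recurrence in all 3 replicates and 0.474 in the ratio in other replicates. With at least 5 edited reads they were 26.04%, 8.67, 46.8, -2.01 and 0.414. At a score of at least 0.99 the share was 36.6%, the C density difference turned to 0.625 per 100 bases, recurrence was -6.27 and the ratio 0.409. At a mean depth of at least 50 the values were 24.8%, 6.67 C bases, 35.0 bases, a C density that turned to 0.741, -4.59 for recurrence and 0.294 for the ratio. Within classes of edited reads the length difference was 43.0 bases, recurrence turned to 3.36 and the ratio was 0.353. Means gave 39.6 bases and a ratio of 0.391, an overlap of at least 50% gave -4.91 and 0.555, and classes of C bases gave -12.5 and 0.341.

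The next 3 alternatives, a ratio above 2 and the classes of length alone or with edited reads, were chosen after seeing the data. A ratio above 2, without the ties, gave 21.9%, 8.33 C bases and a recurrence that turned to 1.13. Within classes of length the C bases differed by 0.836, the C density turned to 1.39, recurrence was -21.7 and the ratio 0.273. Classes of length and edited reads together gave a ratio of 0.151. Apart from fewer clusters or matched classes, the cause was not tested.

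Without the clusters in RBFOX2, all 6 results stayed within the spread between replicates. Leaving out each replicate in turn gave shares of 27.7% to 29.2%, C bases of 7.25 to 7.75, 45 bases of length, C densities of -1.08 to -0.417 and ratios of 0.280 (without replicate 3) to 0.454 (without replicate 1). Recurrence, then over the remaining 2 replicates, turned to 1.496 (without replicate 2) up to 2.97 (without replicate 1), and was 2.35 without replicate 3. No paired analysis was possible because all samples belong to 1 group, while the classes of clusters were compared within each replicate. Most members rest on 3 or 4 edited reads, so depth limits the ratio of a single cluster, and with 3 replicates no exact test could reach p = 0.05.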

Other observations

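Clusters with fewer than 3 edited reads were left out of the rule, and those with 1 edited read differed in the ratio. With 1 edited read, 83.9% ± 0.8003 (SD, n = 3 replicates) of the clusters had at least 2 edited bases per edited read, over 4000, 4714 and 3755 clusters. The clusters come from windows that passed the authors' test on the same edits, so this value is not independent of how clusters were called. With 2 edited reads the share was 31.7% ± 0.635, close to the 29.3% ± 1.95 at 3 edited reads. Among clusters with 1 edited read, those with at least 2 edited bases were found in all 3 replicates in 2.50% ± 0.532 of cases, and those with 1 edited base in 0.844% ± 0.343. With 2 edited reads the values were 6.13% ± 1.77 and 3.10% ± 1.31.

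The counts were not alike in every cluster. Fewer edited bases than edited reads were listed in 28, 12 and 11 clusters with at least 3 edited reads. In a cluster of HNRNPA2B1 in replicate 2, chosen after its values were seen, 3 edited reads held 4 edited bases although the cluster was listed with 1 C base.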
